A study of Homo sapiens with 6 samples.

Results

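The HSP70 family genes examined here are 10 of the 29483 genes in the expression table of HK-2 cells treated with TEPP-46. They were taken by gene symbol through the Ensembl identifier and comprise the cytosolic HSP70 genes *HSPA8*, *HSPA1A*, *HSPA1B*, *HSPA2*, and *HSPA6*, the HSP110-like genes *HSPA4* and *HSPA4L*, and the more distant relatives *HSPA12A*, *HSPA13*, and *HSPA14*. All 10 were found in the table, and 9 passed the filter on low values, a mean of at least 0.5 FPKM (fragments per kilobase of transcript, scaled to the reads of the library) over the libraries. *HSPA6* did not pass. The set was selected on its case-minus-control differences in FPKM in these same libraries, which were known when it was put together, so the differences between the groups are given for its members as a description. Calls of the fit over all genes are counted for the members beside the share of all genes called. They are counted again under the alternatives at the end, and nothing is read from them.

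HK-2 is an immortalized human cell line that derives from the proximal tubule of the kidney, and TEPP-46 is a small molecule that activates the glycolytic enzyme PKM2. RNA was sequenced from 3 replicates of a control group and 3 replicates of a case group. Both groups were first kept in 25 mM high glucose for 7 days. For a further 1 day in high glucose, the case group was given 10 μM TEPP-46 and the control group was not. Both groups thus shared the high glucose, and the comparison covers a single cell line, dose, and time. The replicates are described as independent, and any test below measures only the spread between these samples.

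The reads of each library in the divisor of its FPKM values, recovered here from the values, numbered 18634891, 17924033, and 17378710 in control replicates 1, 2, and 3 and 16711934, 16047243, and 15363254 in case replicates 1, 2, and 3. By this number, which counts reads in the divisor and not all reads sequenced, every case library was below every control library, and the part of this difference in the results was not tested. All levels below are scaled FPKM, which are FPKM divided by a median-of-ratios factor for each library that ran from 0.939 to 1.03. Case replicate 2 stood apart from the other case libraries. On the first principal component of the tested genes, with 37.2% of the variance, it lay at 9.56, case replicates 1 and 3 lay at 30.5 and 34.4, and the control replicates lay between -27.8 and -22.9.

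Of the epithelial markers, the keratins were the most abundant, with *KRT19* ranging from 336 to 350 among control libraries and from 298 to 410 among case libraries, *KRT8* from 325 to 348 and from 245 to 322, and *EPCAM* from 12.4 to 14.1 and from 13.1 to 14.1. The 5 markers summed to 904, 875, and 869 in the control group and 961, 716, and 837 in the case group. *CDH1*, which encodes E-cadherin, ranged from 3.27 to 3.41 among control libraries and from 1.95 to 2.31 among case libraries. Among the markers of proximal tubular epithelium, *LRP2*, *CUBN*, *AQP1*, and *SLC5A2*, genes of uptake and transport in the tubule, were at or near 0. Of 8 markers of other kidney or blood cells, 5 had a row in the table and none of these reached 0.5. The most abundant was *COL1A1*, between 0.152 and 0.342. The part of the differences in *CDH1* and *KRT8* in the results on the HSP70 genes was not tested.

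HSP70 proteins are chaperones that bind short hydrophobic stretches of unfolded or newly made proteins and release them in a cycle driven by ATP. J-domain proteins deliver substrates and start the hydrolysis of ATP, whereas nucleotide exchange factors, including the HSP110 proteins, open the cycle again. The constitutive member, *HSPA8*, also removes clathrin from endocytic vesicles, and the inducible members are classical targets of heat shock factor 1 (HSF1), which binds repeats of the unit GAA and its reverse complement in their promoters. In bulk RNA, fewer cells that express a gene and less of its RNA per cell cannot be told apart.

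The promoters are shown first, since heat shock elements set some of these genes apart from the others by sequence. In the RefSeq promoter table of GRCh38.p14, which gave promoters for 9 of the 10 genes, the 250 bases before each start were searched on both strands for 2 adjoining units, GAANNTTC or TTCNNGAA, and for 3 adjoining units, GAANNTTCNNGAA or TTCNNGAANNTTC. Each match of 3 units also holds 2 overlapping matches of 2 units. Of all 35116 promoters in the table, 11.6% held 2 units and 0.441% held 3. The matches are printed 5′ to 3′ on the strand of the gene, with the units in capitals and 6 bases on either side.
*HSPA8* distal, chr11:123062348-123062372, minus strand: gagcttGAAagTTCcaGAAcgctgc
*HSPA8* proximal, chr11:123062173-123062197, minus strand: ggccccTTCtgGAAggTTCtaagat
*HSPA6* proximal, chr1:161524460-161524484, plus strand: gaaaggTTCgcGAAagTTCgcggcg
*HSPA6* distal, chr1:161524354-161524373, plus strand: ctgcccGAAccTTCtcccgg
*HSPA1A*, chr6:31815431-31815450, plus strand: accctgGAAtaTTCccgacc
*HSPA1B*, chr6:31827627-31827646, plus strand: cccctgGAAtaTTCccgacc
*HSPA4L*, chr4:127782146-127782165, plus strand: agatctTTCtcGAAcccgca
*HSPA8* held 2 matches of 3 units, 230 to 218 and 55 to 43 bases before its start, and *HSPA6* held 1 match of 3 units, 74 to 62 bases before its start. *HSPA1A* and *HSPA1B* each held 1 match of 2 units at almost the same distance, 106 to 99 and 105 to 98 bases before the start, and *HSPA4L* held 1 in 1 of its 3 promoters. No match of these letters was present in the windows of *HSPA2*, *HSPA4*, *HSPA12A*, and *HSPA13*. A match describes the sequence and does not show that a factor bound it in these cells.

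The gene structures divide the family in another way. The main annotated transcripts of *HSPA1A*, *HSPA1B*, *HSPA2*, and *HSPA6* have a single exon, while that of *HSPA8* has 9 exons and those of *HSPA4* and *HSPA4L* have 19 each. *HSPA1A* and *HSPA1B* are neighbours on chromosome 6, and 69.6% of the 150-base windows in the *HSPA1A* transcript and 70.1% of those in the *HSPA1B* transcript also occur in transcripts of other genes, namely the other gene of the pair and ENSG00000285565. For *HSPA6* the share was 15.3%, all with *HSPA7*, and for *HSPA14* it was 10.5%. Levels of *HSPA1A* and *HSPA1B* are uncertain one against the other for this reason. How shared reads were counted is not given in the sources used here. If they were left out, both genes and their sum are too low against the other members. *HSPA8*, *HSPA2*, *HSPA4*, *HSPA4L*, *HSPA12A*, and *HSPA13* shared no such window with another annotated transcript.

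*HSPA8* (ENSG00000109971, chromosome 11, 123057489 to 123063230) encodes the constitutive cytosolic HSP70. Its RNA was lower in every case library than in any control library. Its scaled FPKM was 269.3, 271.7, and 259.8 in control replicates 1, 2, and 3 and 123.7, 114.5, and 127.2 in case replicates 1, 2, and 3. The groups lay far apart, with little spread in either. The means were 267 ± 6.27 and 122 ± 6.55 (SD, n = 3 each), so the case group stood at 45.6% of the control group, with a log2 fold change of -1.13 (standard error 0.07). These values rest on 8958 to 24883 reads per library. With the control mean at rank 122 of the 13599 tested genes, *HSPA8* was also the most abundant of the family in both groups.

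*HSPA2* (ENSG00000126803, chromosome 14, 64535905 to 64546173), best known as the testis-enriched HSP70, was expressed at a low level. Control replicates 1, 2, and 3 had 4.14, 4.50, and 4.64 scaled FPKM, and case replicates 1, 2, and 3 had 1.77, 1.92, and 1.76. Of the 9 genes that passed the filter, it had the largest fall on the log2 scale, -1.24 (standard error 0.10), to 41.0% of the control group. With a pseudocount of 1 or quantile normalization, the fall of *HSPA8* was larger, at -1.13 and -1.36 against -0.95 and -1.17 for *HSPA2*. The case values differed from each other by less than those of most genes, with an SD of 0.07 on the log2 scale against a median of 0.19 over all tested genes. Between 153 and 480 reads per library support these values. The antisense gene *HSPA2-AS1* overlaps *HSPA2*, and whether the counting used strand is not given in the sources used here. Other listed genes overlap *HSPA8* (*SNORD14E*), *HSPA4* (ENSG00000279691), *HSPA4L* (ENSG00000282855 and *RPL21P53*), and *HSPA14* (*CDNF*).

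*HSPA1A* (ENSG00000204389, chromosome 6, 31815543 to 31817946) and *HSPA1B* (ENSG00000204388, chromosome 6, 31827738 to 31830254) encode the classical stress-inducible HSP70. For *HSPA1A*, the control replicates in order had 17.0, 17.8, and 19.8 scaled FPKM and the case replicates had 11.7, 9.61, and 9.94, a log2 fold change of -0.80 (standard error 0.10). For *HSPA1B*, the values were 16.9, 16.1, and 14.7 in the control group and 8.40, 7.53, and 7.42 in the case group, a log2 fold change of -1.02 (standard error 0.09). In neither gene did the groups overlap. Read numbers ran from 371 to 879 for *HSPA1A* and from 281 to 812 for *HSPA1B*.

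Within the control group the pair deviated in opposite directions. The ratio of *HSPA1A* to *HSPA1B* was 1.00, 1.10, and 1.34 in control replicates 1, 2, and 3 and 1.40, 1.28, and 1.34 in case replicates 1, 2, and 3, so the groups overlapped in this ratio. Their sum, which does not depend on how reads were divided between the genes if each shared read was counted once, varied less than either gene in the control group but not in the case group, at 33.9, 33.8, and 34.5 in the control group and 20.1, 17.1, and 17.3 in the case group. The summed level in the case group was 53.5% of that in the control group, with means of 34.1 ± 0.357 and 18.2 ± 1.65 (SD, n = 3 each).

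**Figure D1:**
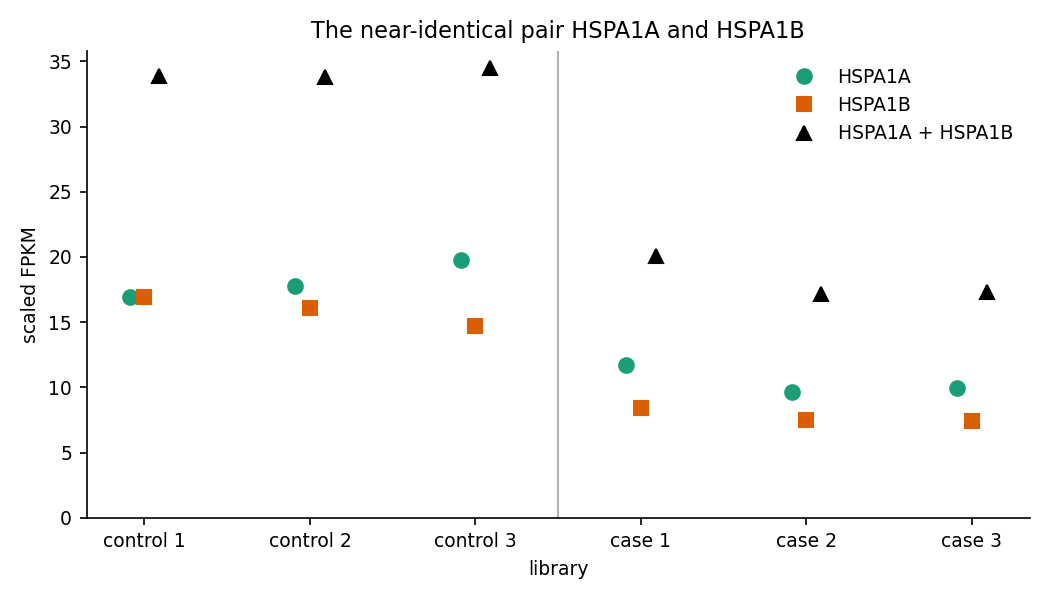
Scaled FPKM (vertical axis, linear from 0) of *HSPA1A* (circles), *HSPA1B* (squares), and their sum (triangles) in each of the 6 libraries (horizontal axis). The sum lies between 33.8 and 34.5 in the control libraries and between 17.1 and 20.1 in the case libraries, while the distance between the paired genes varies among the control libraries.

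The primers that the study used for PCR of these genes show what sequence separates the pair. Each is printed 5′ to 3′ as ordered, in lower case, with its place in GRCh38 and the exact matches found among annotated transcripts of GENCODE v44.
*HSPA1B* forward, chr6:31829748-31829767: gagcaggtgtgtaaccccat
*HSPA1B* reverse, chr6:31829919-31829939: cagcaaagtccttgagtccca
*HSPA8* forward, chr11:123058664-123058685: ctgtggacaagagtacgggaaa
*HSPA8* reverse, chr11:123058401-123058423: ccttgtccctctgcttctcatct
*HSPA2* forward, chr14:64541474-64541494: gacgtgtccatcctgaccatc
*HSPA2* reverse, chr14:64541771-64541790: cgaaagaggtcggcattgag
The *HSPA1B* forward primer lies in the coding sequence and also matches *HSPA1A*, whereas the reverse primer lies in the 3′UTR and matches only *HSPA1B*. The product in the *HSPA1B* transcript has 192 bases. The *HSPA8* reverse primer matches 4 annotated genes, *HSPA8* and the pseudogenes *HSPA8P8*, *HSPA8P11*, and *HSPA8P16*, but only *HSPA8* holds both of its primers. Both *HSPA2* primers lie in its coding sequence and match no other annotated transcript. No PCR values were analysed here.

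*HSPA6* (ENSG00000173110, chromosome 1, 161524540 to 161526894) is known as a strictly stress-inducible member and was close to the limit of detection. It was at 0.642, 0.481, and 0.801 scaled FPKM in control replicates 1, 2, and 3 and at 0.538, 0.314, and 0.168 in case replicates 1, 2, and 3, from 29, 21, and 34 and from 20, 12, and 6 reads. The groups overlapped. At this depth no difference in *HSPA6* could be described beyond these values.

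**Figure D2:**
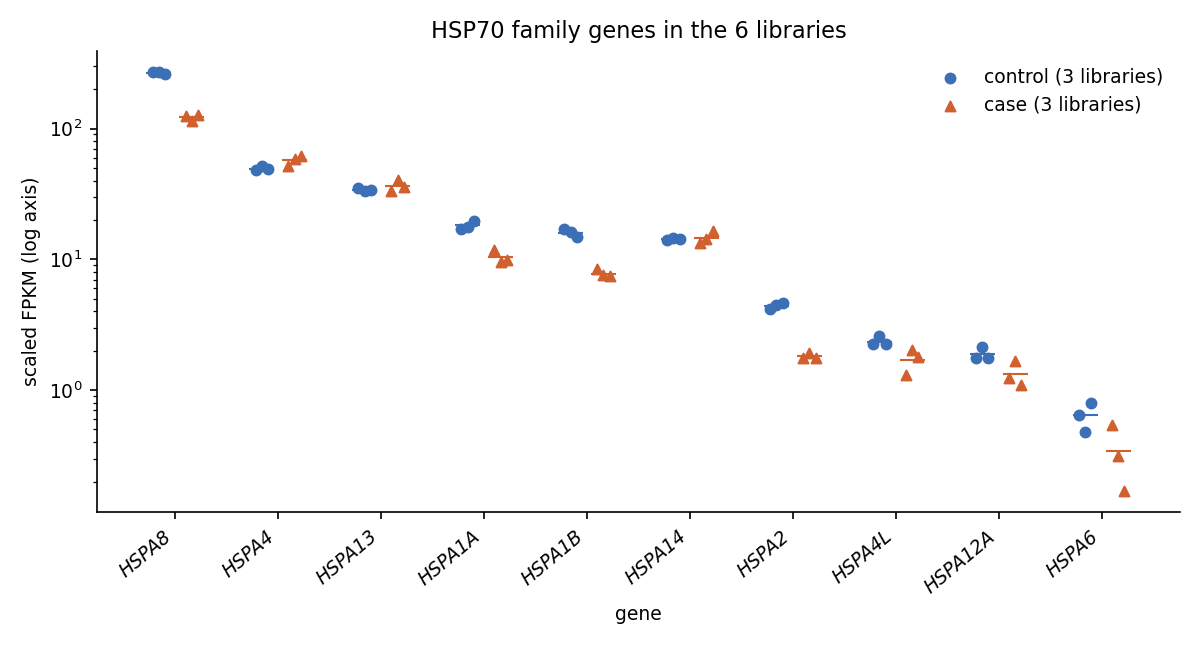
Scaled FPKM (vertical axis, log scale) of each of the 10 HSP70 genes in the 3 control and the 3 case libraries, with 1 point per library and a line at each group mean. *HSPA8*, *HSPA1A*, *HSPA1B*, *HSPA2*, *HSPA4L*, and *HSPA12A* are lower in every case library than in any control library, *HSPA4* is higher in every case library, and *HSPA13*, *HSPA14*, and *HSPA6* overlap.

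*HSPA4* (ENSG00000170606, chromosome 5, 133052013 to 133106449) encodes an HSP110 protein that exchanges nucleotides on HSP70. It was the second most abundant gene of the family, and its values did not fall. Scaled FPKM was 47.9, 51.4, and 48.8 in control replicates 1, 2, and 3 and 51.8, 58.6, and 62.1 in case replicates 1, 2, and 3. The lowest case library lay just above the highest control library, and before scaling the groups overlapped, with case replicate 1 at 48.6 FPKM and control replicate 2 at 52.8. The log2 fold change was 0.22 (standard error 0.09). It was 0.02 when the libraries were brought to equal FPKM sums.

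*HSPA4L* (ENSG00000164070, chromosome 4, 127781821 to 127840733), the closest relative of *HSPA4*, stood in contrast to it. Its levels of 2.24, 2.57, and 2.23 in the control group and 1.30, 2.03, and 1.80 in the case group did not overlap, but the gap between the lowest control library and case replicate 2 was small. The log2 fold change was -0.46 (standard error 0.17), and without case replicate 1 it was -0.28. *HSPA12A* (ENSG00000165868, chromosome 10, 116671192 to 116850251), an atypical member with a divergent ATPase domain, showed a like pattern, at 1.77, 2.14, and 1.75 in the control group and 1.24, 1.68, and 1.10 in the case group. Its log2 fold change was -0.48 (standard error 0.18). For both genes case replicate 2 was the highest case library, and the SD of the case group on the log2 scale, 0.31 and 0.29, exceeded the median of 0.19 over all tested genes. *HSPA4L* rested on 237 to 551 reads per library and *HSPA12A* on 116 to 276 reads or a whole multiple of these. *HSPA12A* overlaps *ENO4* and *HSPA12A-AS1*.

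*HSPA13* (ENSG00000155304, chromosome 21, 14371115 to 14383484), a small member known from the microsomal fraction, had 35.2, 33.4, and 33.9 scaled FPKM in control replicates 1, 2, and 3 and 33.2, 40.3, and 35.9 in case replicates 1, 2, and 3. *HSPA14* (ENSG00000187522, chromosome 10, 14838306 to 14871741) encodes the HSP70 of the ribosome-associated complex. It had 14.0, 14.5, and 14.4 in the control group and 13.2, 14.4, and 16.4 in the case group. In both genes the groups overlapped, with case libraries on either side of the control libraries. The log2 fold changes were 0.09 (standard error 0.09) and 0.04 (standard error 0.10), and their signs depended on the scaling. *HSPA13* was at 0.02 without case replicate 2 and at 0.16 without case replicate 1, and *HSPA14* was at -0.05 without case replicate 3 and at 0.11 without case replicate 1. With the libraries brought to equal FPKM sums they were -0.11 and -0.16, at a median over all tested genes of -0.19.

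**Figure D3:**
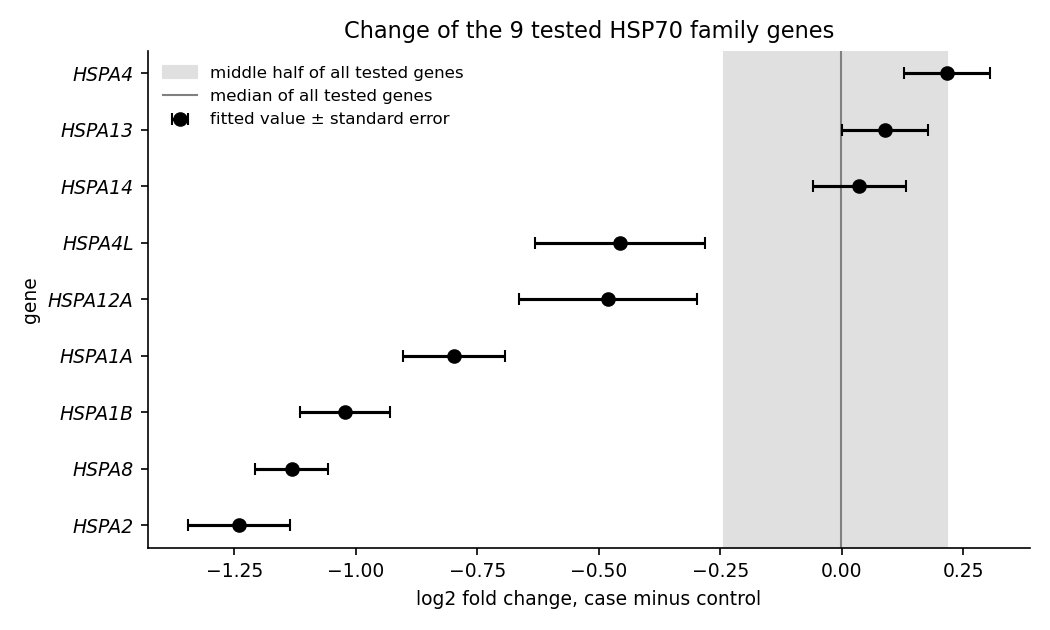
Log2 fold change, case minus control (horizontal axis), of the 9 HSP70 genes with a mean of at least 0.5 FPKM, as fitted values with bars of 1 standard error. The shaded band spans the quartiles of all tested genes, -0.24 to 0.22, and *HSPA8*, *HSPA1A*, *HSPA1B*, and *HSPA2* lie far to its left, *HSPA4L* and *HSPA12A* lie to its left, and *HSPA4*, *HSPA13*, and *HSPA14* lie inside it.

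The calls of the fit over all genes are given next for description only, because the members were chosen with this comparison known, and they are no test of the members. Of the 13599 tested genes, 794 were downregulated (5.84%) and 998 were upregulated (7.34%) by limma at an adjusted p of at most 0.05, 13.2% in all. Among the 9 HSP70 genes, 4 were among the downregulated DE genes, *HSPA8*, *HSPA1A*, *HSPA1B*, and *HSPA2*, and none was among the upregulated ones. At an unadjusted p under 0.05, which 33.1% of all tested genes passed (16.2% lower and 16.8% higher), *HSPA4* was higher and *HSPA4L* and *HSPA12A* were lower in addition to these 4. By voom on recovered reads none was upregulated. Without control replicate 2 or 3, *HSPA1A* was no longer called, at log2 fold changes of -0.81 and -0.74, and 3 HSP70 genes were, where 0.103% and 0.14% of all tested genes were downregulated. Without case replicate 2, or with voom on recovered reads, *HSPA4L* and *HSPA12A* were also called, which made 6. Without case replicate 2, 12.4% of all tested genes were downregulated and 13.4% upregulated, 25.7% in all, and by voom the shares were 11.1% and 9.54%, 20.6% in all. Without case replicate 1, *HSPA4* was called as upregulated, with a log2 fold change of 0.29, where 8.92% of all tested genes were upregulated. By range alone, 6 of the 9 genes were lower in all case libraries than in any control library, 1 was higher, and 2 overlapped. Of all tested genes, 20.4% were lower and 19.5% were higher in this sense.

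Within the control group the order of the levels per length was *HSPA8*, *HSPA4*, *HSPA13*, *HSPA1A*, *HSPA1B*, *HSPA14*, *HSPA2*, *HSPA4L*, *HSPA12A*, and *HSPA6*, and the ranges of all neighbours were apart. In the case group *HSPA14* stood above *HSPA1A* and *HSPA1B*, whereas it stood below both in the control group. This order depends on the gene lengths in the FPKM divisor, which are not those of the main transcripts for every gene. In control replicate 1 *HSPA14* had more reads than *HSPA1A*, 1140 against 802, and a shorter main transcript, 1762 against 2400 bases. Its lower level per length there thus rests on a longer length in the divisor. *HSPA2* and *HSPA4L*, at 1.82 and 1.71 on average, no longer differed beyond their spread in the case group. The ranges of *HSPA4L* and *HSPA12A* overlapped there, with a gap between the means of 0.37 against a pooled SD of 0.34. The inducible pair lay between 7.42 and 11.7 scaled FPKM in the case group, in which *HSPA8* still lay above 114.

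Summed over all 10 genes, the family dose was 409, 414, and 401 scaled FPKM in control replicates 1, 2, and 3 and 247, 251, and 264 in case replicates 1, 2, and 3. Every case library was far below every control library. The means were 408 ± 6.91 and 254 ± 8.86 (SD, n = 3 each), so the sum in the case group was 62.2% of that in the control group, a log2 ratio of -0.68. The sum was mainly one gene. *HSPA8* made up 65.4% ± 0.511 of it in the control group, against 48.0% ± 2.24 in the case group, and its own difference equalled 94.1% of the difference in the sum. These values depend on how reads shared by *HSPA1A* and *HSPA1B* were counted and on the gene lengths in the divisor. Without *HSPA8*, the other 9 genes summed to 141 ± 1.50 in the control group, against 132 ± 7.71 in the case group, a log2 ratio of -0.10, with values of 140, 143, and 141 against 123, 136, and 137.

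Split by role, the sums of the cytosolic HSP70 genes differed far more than those of the other genes. The 5 cytosolic HSP70 genes together had 306 ± 5.62 scaled FPKM in the control group and only 142 ± 7.17 in the case group (SD, n = 3 each), which is 46.5%. The other 5 genes summed to 102 ± 1.67 in the control group, against 112 ± 9.48 in the case group, where case replicate 1 was at 101 and case replicates 2 and 3 were both at 117. The groups overlapped in this sum, and its log2 ratio was 0.13, or -0.06 with the libraries brought to equal FPKM sums. The HSP110-like genes *HSPA4* and *HSPA4L* together had 51.7 ± 2.00 and 59.2 ± 5.54, again with overlap, since case replicate 1 was at 53.1 and control replicate 2 at 54.0. As shares of the family dose, *HSPA4* went from 12.1% to 22.6% and *HSPA13* from 8.37% to 14.4%. These shares would rise whenever *HSPA8* is lower, also at constant levels of the other genes.

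**Figure D4:**
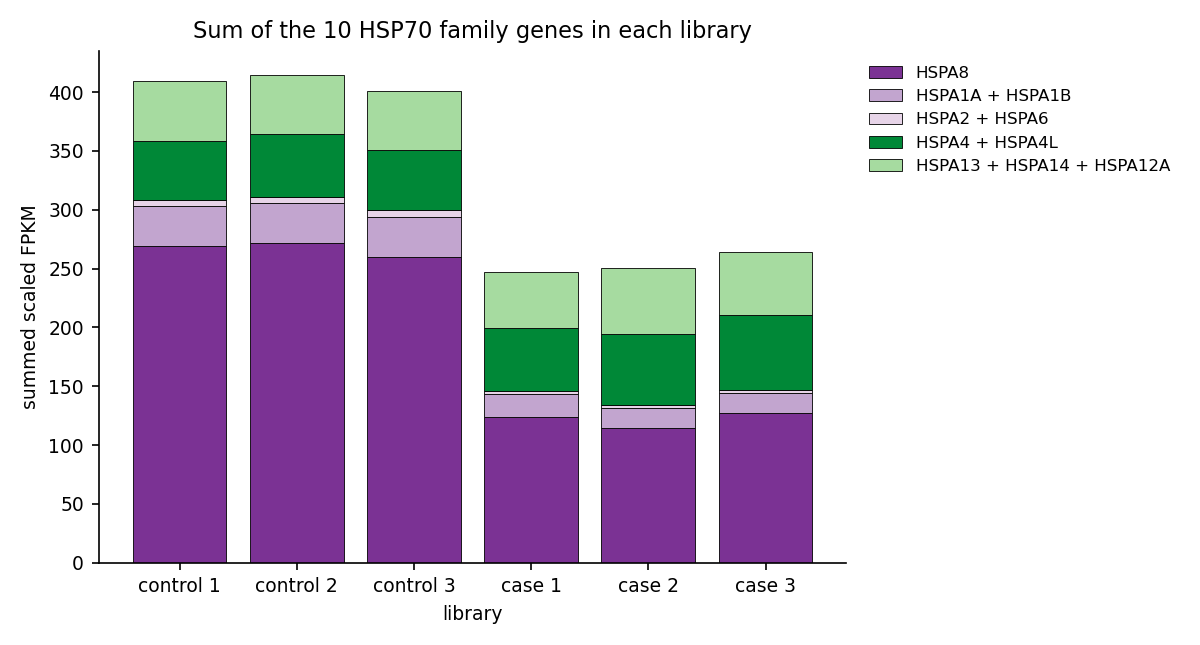
Summed scaled FPKM of the 10 HSP70 genes (vertical axis, linear from 0) in each of the 6 libraries (horizontal axis), as stacked bars of *HSPA8* and of groups of the other genes. The sums are 409, 414, and 401 in the control libraries and 247, 251, and 264 in the case libraries, and most of the difference is in the *HSPA8* segment.

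Genes that work with HSP70 were read from the same fit by 7 lists of roles. Of 58 listed genes, 57 were in the table and 55 were tested, and 4 were downregulated, 4 were upregulated, and 47 did not pass. That is 7.27% in each direction, against 5.84% and 7.34% of all tested genes. The median log2 fold change over the 55 genes was 0.06, against 0.00 over all tested genes. These lists were also written with earlier results of these data known.

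Among the other members of the superfamily, 1 of 5 tested genes was downregulated and none was upregulated by limma, where 5.84% and 7.34% of all tested genes were called. At an unadjusted p under 0.05, 2 were lower and 2 higher, where 33.1% of all tested genes passed, and voom on recovered reads called 2 as downregulated and none as upregulated, where it called 11.1% and 9.54% of all tested genes. *HSPH1*, the HSP110 gene induced by heat, had 7.50, 9.19, and 8.42 scaled FPKM in the control group and 5.58, 6.74, and 6.13 in the case group, a log2 fold change of -0.44 (limma adjusted p = 0.0410, standard error 0.11). *HSPA5*, the HSP70 of the endoplasmic reticulum, was higher in each case library, at 192, 198, and 192 against 216, 230, and 240. Its log2 fold change of 0.24 did not pass the threshold (limma adjusted p = 0.0702, standard error 0.07). *HSPA9*, the mitochondrial HSP70, differed by 0.22 on the log2 scale (limma adjusted p = 0.102, standard error 0.08), again with no overlap between the groups. With equal FPKM sums both were close to 0, at 0.04 for *HSPA5* and 0.02 for *HSPA9*, and with quantile normalization both were at 0.00 with the sign turned. Without case replicate 1 both were called as upregulated, where 8.92% of all tested genes were. *HSPA5* was then at 0.28 (limma adjusted p = 0.0277) and *HSPA9* at 0.29 (limma adjusted p = 0.027). *HSPA7* was listed at 0.

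Nucleotide exchange factors and J-domain partners included genes called in either direction. Of 9 exchange factors, none was downregulated by limma on scaled FPKM or by voom, and 2 were upregulated by either. Of all tested genes, limma called 5.84% as downregulated and 7.34% as upregulated, and voom called 11.1% and 9.54%. At an unadjusted p under 0.05, none was lower and 3 were higher, where 33.1% of all tested genes passed. The called genes were *SIL1*, which serves *HSPA5* in the endoplasmic reticulum (0.46 on the log2 scale, limma adjusted p = 0.0266, standard error 0.10), and *GRPEL2*, which serves *HSPA9* in mitochondria (0.54, limma adjusted p = 0.0415, standard error 0.14). Both serve HSP70 proteins outside the cytosol. The cytosolic exchange factor *BAG3*, a classical HSF1 target, was at -0.07 (limma adjusted p = 0.633). Of 15 J-domain genes, *DNAJB4* (-0.59, limma adjusted p = 0.0242, standard error 0.12) and *DNAJB5* (-0.49, limma adjusted p = 0.0448, standard error 0.13), relatives of *DNAJB1*, were downregulated. *DNAJC9*, a histone chaperone, was upregulated (0.33, limma adjusted p = 0.0411, standard error 0.08). With equal FPKM sums, *DNAJC9* was at 0.13 (limma adjusted p = 0.388), *SIL1* at 0.26 (limma adjusted p = 0.0810), and *GRPEL2* at 0.35 (limma adjusted p = 0.161), none of them called. Of the 15 genes, 4 were lower and 3 higher at an unadjusted p under 0.05, where 33.1% of all tested genes passed, and voom called 4 as downregulated and 1 as upregulated, where it called 11.1% and 9.54% of all tested genes. *DNAJC13*, an endosomal J-domain gene, had a log2 fold change of -0.61 (limma adjusted p = 0.0669) and *DNAJC5*, known from synaptic vesicles, of -0.29 (limma adjusted p = 0.0669), and both were among the genes called by voom. *DNAJB1* itself, the heat-inducible partner of HSP70, had 58.5, 56.9, and 59.4 scaled FPKM in the control group and 60.8, 52.8, and 53.4 in the case group (-0.07, limma adjusted p = 0.591). With equal FPKM sums, at a median over all tested genes of -0.19, *DNAJB1* was at -0.27 (limma adjusted p = 0.0276) and *BAG3* at -0.27 (limma adjusted p = 0.0402), both called. The exchange factor *BAG2*, at -0.35 with equal FPKM sums, was also called (limma adjusted p = 0.034).

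For the removal of clathrin coats, in which HSP70 acts with a J-domain protein, 1 of 5 genes was called by limma, as upregulated. Of all tested genes, limma called 5.84% as downregulated and 7.34% as upregulated. *CLTA*, a clathrin light chain, had 150, 140, and 136 scaled FPKM in the control group and 211, 183, and 213 in the case group, a log2 fold change of 0.51 (limma adjusted p = 0.0159, standard error 0.09). *CLTC*, the clathrin heavy chain, was lower in every case library, at 52.8, 56.2, and 51.6 in the control group and 36.1, 47.2, and 41.1 in the case group, but just missed the threshold (-0.38, limma adjusted p = 0.0532, standard error 0.11). Over its alternatives the limma adjusted p ran from 0.0125 to 0.187, and voom on recovered reads called it as downregulated (limma adjusted p = 0.0203). At an unadjusted p under 0.05, 2 of the 5 genes were lower and 1 was higher, where 33.1% of all tested genes passed. Voom called 1 in each direction, where it called 11.1% and 9.54% of all tested genes. *GAK* and *DNAJC6*, which recruit HSP70 to clathrin, were at -0.25 (limma adjusted p = 0.0903) and -0.31 (limma adjusted p = 0.458). With equal FPKM sums *GAK* was at -0.44 and called (limma adjusted p = 0.0161). It was also called with unscaled FPKM and without case replicate 1. Of 11 genes that link HSP70 to HSP90, *FKBP5*, an immunophilin, was downregulated (-0.37, limma adjusted p = 0.0400, standard error 0.09). By limma 5.84% of all tested genes were downregulated. *STIP1*, which hands substrates from HSP70 to HSP90, was at -0.02 (limma adjusted p = 0.854). With equal FPKM sums *STIP1* was at -0.22 and called (limma adjusted p = 0.0420), and it was also called with quantile normalization.

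None of the 3 heat shock factors and none of the 7 other HSF1 targets tested was called by limma. Of all tested genes, it called 5.84% as downregulated and 7.34% as upregulated. At an unadjusted p under 0.05, no heat shock factor passed, and 1 of the 7 targets was lower, *HSPB1*, and 1 was higher, *SERPINH1*, where 33.1% of all tested genes passed. By voom on recovered reads, *HSPB1*, which encodes a small heat shock protein, was downregulated, as were 11.1% of all tested genes. *HSF1* had 24.8, 24.3, and 27.4 scaled FPKM in the control group and 35.2, 24.5, and 25.0 in the case group, a log2 fold change of 0.13 (limma adjusted p = 0.571), with the difference in case replicate 1 alone. The median log2 fold change of the 7 other targets was 0.24, and only 1 of them was lower in all case libraries than in any control library. This median was 0.04 with equal FPKM sums and 0.10 with quantile normalization. All 8 calls among these partner genes were lost without any one of the control replicates, without case replicate 3, or without the filter on low values. Over all alternatives the adjusted p by limma ranged from 0.00313 to 0.0882 for *CLTA* and from 0.0140 to 0.161 for *HSPH1*.

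**Figure D5:**
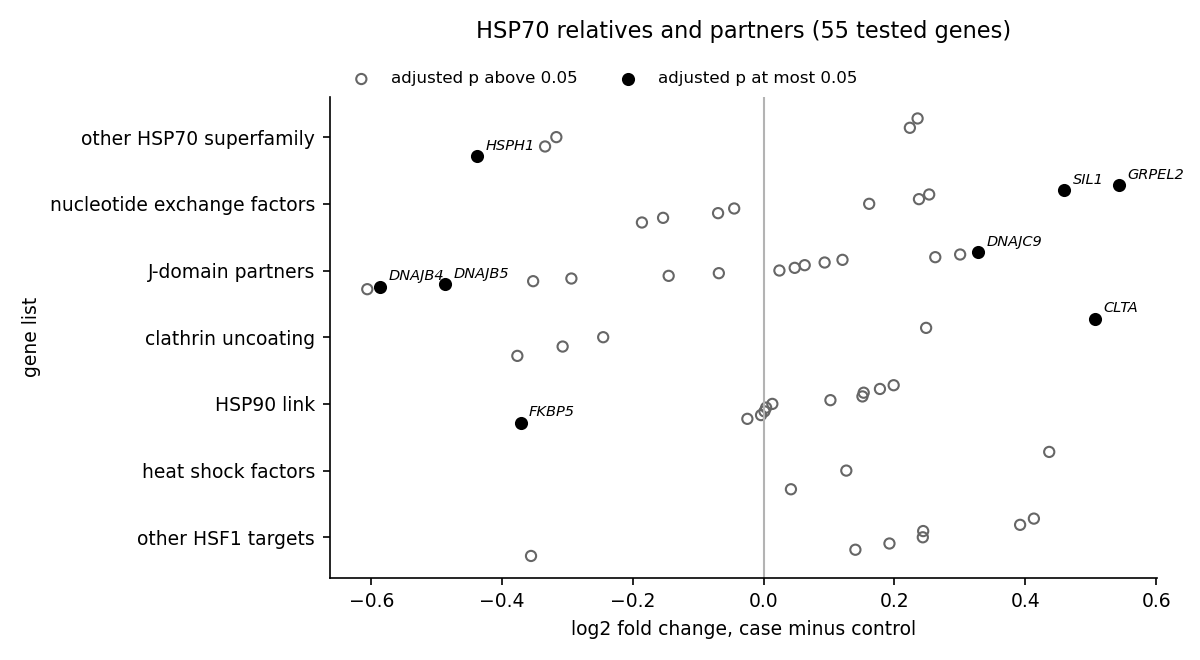
Log2 fold change, case minus control (horizontal axis), of the 55 tested relatives and partners of HSP70 in 7 lists of roles (vertical axis), with 1 point per gene. Filled points mark the 8 genes called by limma at an adjusted p up to 0.05, 4 on either side of 0.

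By a rule on likeness, the 5 tested genes outside the lists whose log2 levels followed *HSPA8* most closely were *LPAR1*, *TNS4*, *MAP4K2*, *NAV1*, and *ABCA7*. Their Pearson correlations over the 6 libraries were between 0.992 and 0.993, with log2 fold changes of -0.32, -1.25, -0.30, -1.22, and -0.46 in this order. All 6 points share their libraries and their scaling, and any gene that differs cleanly between the groups ranks high by this measure.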

How the data were processed

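RNA of HK-2 cells was measured in 3 control and 3 case libraries. The deposited values are FPKM of 29483 genes. Per the labels and the methods, the authors aligned quality-filtered reads with HISAT2 2.1.0 to GRCh38.p13, counted them per gene with HTSeq 0.6.0, and divided by gene length and library reads. RNA selection, strandedness, and the annotation version are not given in the sources used here. Symbols and positions came from GENCODE v44 for 29063 genes.

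FPKM was divided by median-of-ratios factors computed on genes with a mean of at least 0.5, and log2 was taken after adding 0.1. Fold changes on this scale understate those of low genes. Genes whose FPKM averaged 0.5 or more were tested with limma 3.58.1 in R 4.3.3 with an intensity trend, without covariates, with Benjamini-Hochberg adjustment of the p-values over all 13599 tested genes. The study tested counts with DESeq2, which was not used here. Because the FPKM values step by whole reads, reads were recovered for 98.0% of the 27922 genes above 0, and voom on these reads was added once the values had been examined. The libraries carried no molecular identifiers that are stated, so read numbers do not count independent molecules.

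The HSP70 genes and all lists were chosen with earlier results of these data known. The text names all 10 HSP70 genes, the called partner genes, preset examples of each partner list, and the 5 genes most like *HSPA8*. *ENO4* and other overlapping genes, *HSPB1*, *SERPINH1*, *CLTC*, *DNAJC5*, *DNAJC13*, *BAG2*, and *CDH1* were named after their values were seen. Alternatives changed the pseudocount (1 or 0.01), the filter (none or a mean of at least 1), the scaling, the variance model, the replicate block, and the libraries used. Not every gene of the proximal tubule marker list is reported here.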

Additional observations from a re-analysis of the deposited data

How the results depend on the processing

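The log2 fold changes of *HSPA8*, *HSPA1A*, *HSPA1B*, *HSPA2*, *HSPA4*, *HSPA4L*, and *HSPA12A* kept their sign in all 17 alternatives, from -1.36 to -1.09 for *HSPA8*, -0.996 to -0.74 for *HSPA1A*, -1.22 to -0.94 for *HSPA1B*, -1.43 to -0.95 for *HSPA2*, 0.02 to 0.29 for *HSPA4*, -0.65 to -0.28 for *HSPA4L*, and -0.67 to -0.31 for *HSPA12A*. *HSPA13* kept its sign in 15 and *HSPA14* in 13. Rescaling to equal FPKM sums (TPM) moved the median of all tested genes to -0.19 and unscaled FPKM moved it to -0.08. The log2 ratio of the family sum was -0.76 with unscaled FPKM, -0.88 with TPM, -0.10 without *HSPA8*, and -1.11 with the 5 cytosolic HSP70 genes alone. DE genes numbered 329 upregulated and 191 downregulated without any filter on low values, 433 and 414 with no intensity trend, and 383 and 2387 with TPM. Unscaled FPKM gave 662 upregulated and voom on recovered reads 1508 downregulated genes. Leaving out single libraries gave 55 to 1813 upregulated and 14 to 1682 downregulated genes, lowest without control replicate 2 and highest without case replicate 2, with 3 to 6 downregulated and 0 to 1 upregulated HSP70 genes. Partner genes downregulated and upregulated numbered 0 and 0 with no filter, 9 and 2 unscaled, 14 and 1 with TPM, and 0 and 2 with no intensity trend. With quantile normalization 10 and with voom 9 were downregulated. Leaving out single libraries gave 0 to 7 and 0 to 10. The causes of these changes were not tested. Fits with fewer libraries have fewer degrees of freedom, and the part of this in the changes was not tested either. Deviations of same-numbered replicates of the groups were weakly correlated (0.06, 0.10, and -0.05). Whether the numbers pair the replicates is not given in the sources used here, and these correlations cannot decide it. With the replicate block, 848 genes were upregulated and 762 downregulated, the same 4 HSP70 genes were downregulated, and 5 partner genes were downregulated and 3 upregulated. With 3 libraries a group, depth limits *HSPA6* most, at 6 to 34 reads.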
